A study of Mus musculus with 12 samples.

Results

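Lymphocytes and the antigen presentation system were followed through 39 mouse genes: T cell, B cell and cytotoxic lymphocyte genes, and genes of the major histocompatibility complex (MHC) class I and class II pathways. A gene was taken when a probe set carried its symbol alone in the platform's probe-to-gene table, and where several did, the brightest on average stood for it. This gave 33 members of 17097 genes on the array, and B2m, Tap1, Tap2, Lck, Il7r and Ccr7 were not analysed here. Of the 33, 19 had a mean log2 level at or above 3.43, the 25th percentile of all genes, and were among the 12825 genes tested.

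The RNA came from islets of Langerhans, the hormone-secreting cell clusters of the pancreas, of mice aged 12 weeks on standard chow. There were 4 genotypes with 3 arrays each: hIAPP-TgxBACE2-KO mice, hIAPP-Tg mice, BACE2-KO mice and wild-type (WT) mice. hIAPP is human islet amyloid polypeptide, the peptide of islet amyloid, and BACE2 is a membrane-bound protease found in beta cells. All 4 groups carry the strain label B6;129P2-Bace2tm1Bdes/J, so the labels do not name a separate background for the WT mice. The sources used here do not give the promoter of the transgene, the cells it drives or the number of mice per array. The p-values therefore measure array-to-array spread, which may be technical.

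Class I molecules show peptides from inside the cell to CD8 T cells and are made by nearly all nucleated cells. The immunoproteasome cuts those peptides and tapasin helps to load them. Class II molecules show engulfed protein to CD4 T cells and are made mainly by macrophages, dendritic cells and B cells, which are few in a healthy islet.

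Beta cell markers were abundant: their mean log2 level over 12 genes lay between 9.87 and 10.66 in every array. The 14 markers of exocrine acinar cells also had means of 8.69 to 10.70, so the preparations held exocrine RNA. The Bace2 probe set stood at 10.65 to 10.95 in hIAPP-TgxBACE2-KO, 10.89 to 11.09 in hIAPP-Tg, 10.85 to 11 in BACE2-KO and 10.91 to 11.18 in WT arrays. Its position relative to the deletion is unknown, so it is no check of the genotype labels, and directions for BACE2 loss rest on those labels. In whole islets, fewer cells of a type and less RNA per cell cannot be told apart. 2 arrays stood apart in B cell transcripts, hIAPP-Tg replicate 3 and BACE2-KO replicate 2. Many of the values that moved without one of them are given both ways.

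Most T cell and cytotoxic genes lay close to the filter in all 12 arrays. Jchain, Ms4a1 and Cd79b differed widely between arrays of one genotype, hIAPP-Tg replicate 3 was the highest array in 4 of the 5 tested class II genes, and the class I heavy chains spanned less than 0.5 log2 units. No member passed limma's moderated test (Benjamini-Hochberg adjusted p under 0.05 over all genes tested) in any of 8 comparisons. Each genotype was set against WT, hIAPP-TgxBACE2-KO also against the other two, each change was averaged over the other, and the interaction asked whether the transgene difference depended on BACE2.

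The background was low too. Of all genes tested, 0.133% were called between hIAPP-TgxBACE2-KO and WT, 0.101% between hIAPP-TgxBACE2-KO and hIAPP-Tg, 0% between hIAPP-TgxBACE2-KO and BACE2-KO, 0.0156% between hIAPP-Tg and WT, and 0.125% between BACE2-KO and WT. The shares were 0.0078% for the averaged transgene difference, 0.92% for averaged BACE2 loss and 0.0078% for the interaction. A count of 0 among 19 members lies near these shares. At an unadjusted p under 0.05, the members numbered 0 for hIAPP-TgxBACE2-KO against WT, where 8.43% of all genes tested passed, 2 against hIAPP-Tg (8.37%) and 0 against BACE2-KO (4.44%). They numbered 2 for hIAPP-Tg against WT (4.52%) and 0 for BACE2-KO against WT (6.28%). The counts were 0 for the averaged transgene difference (7.59%), 2 for averaged BACE2 loss (11.4%) and 3 for the interaction (2.4%). Those 3 were 1 T cell and 2 B cell members, among them Ms4a1, whose pass of the filter is described below.

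**Figure D1:**
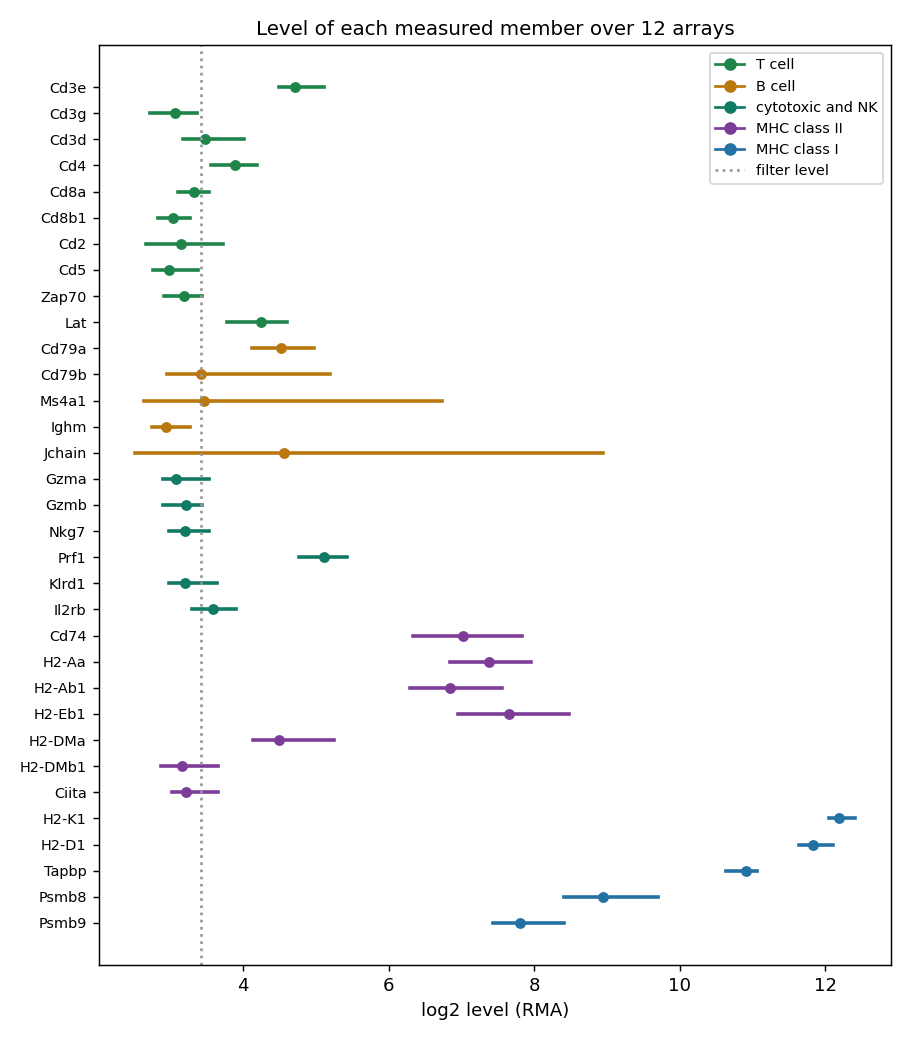
Mean (point) and lowest to highest array (bar) of the log2 level of each of the 33 measured members over 12 arrays, coloured by role, with the filter at 3.43 as a dotted line. The wide bars belong to Jchain, Ms4a1 and Cd79b; levels of different probe sets are not on a common scale of RNA amount.

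The T cell members encode the receptor's CD3 chains, the coreceptors CD4 and CD8, and proteins that pass on the receptor's signal. 10 were measured and 4 passed the filter: Cd3e, Cd3d, Cd4 and Lat. The mean over the 10 was 3.46 to 3.52 in hIAPP-TgxBACE2-KO, 3.49 to 3.57 in hIAPP-Tg, 3.45 to 3.56 in BACE2-KO and 3.47 to 3.52 in WT arrays. The groups overlapped throughout, and the array with the highest mean, hIAPP-Tg replicate 3 (3.57), differed little from the lowest, BACE2-KO replicate 3 (3.45).

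Cd3d, a CD3 chain, was at 3.52, 3.17 and 3.34 in hIAPP-TgxBACE2-KO, 3.69, 3.23 and 4.02 in hIAPP-Tg, 3.38, 3.76 and 3.44 in BACE2-KO and 3.35, 3.48 and 3.42 in WT arrays. Its highest values were those of hIAPP-Tg replicate 3 and BACE2-KO replicate 2. Cd3e, another CD3 chain, did not share that order: its highest level was 5.11 in hIAPP-Tg replicate 2, and hIAPP-Tg replicate 3 had 4.57. The coreceptor genes Cd8a and Cd8b1 stayed between 2.83 and 3.54 in all arrays and were not tested.

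Cd4 was the T cell member with the smallest p. Its levels were 3.98, 4.19 and 4.0 in hIAPP-TgxBACE2-KO arrays, 4.03, 3.61 and 3.56 in hIAPP-Tg, 3.74, 3.91 and 3.84 in BACE2-KO, and 3.95, 3.87 and 3.97 in WT arrays. The groups hIAPP-TgxBACE2-KO and hIAPP-Tg overlapped through hIAPP-Tg replicate 1. Their difference was 0.32 log2 units (SE 0.13, limma unadjusted p = 0.032, adjusted p = 0.53). On the mean of both Cd4 probe sets it was 0.13, and on the second probe set alone it was -0.07, of the other sign. Without hIAPP-Tg replicate 1 it was 0.47, and its adjusted p lay between 0.264 and 0.848 over the alternatives. The interaction of Cd4 was 0.42, with 0.34 without hIAPP-Tg replicate 3 and 0.57 without hIAPP-Tg replicate 1. For Lat, an adaptor below the T cell receptor, the largest of the pairwise differences was 0.17 between BACE2-KO and WT (SE 0.18, adjusted p = 0.997), which became -0.04 without WT replicate 3 and 0.37 without WT replicate 2.

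Of 19 further T cell genes measured, 10 were tested and limma called 0 in any comparison. In hIAPP-Tg against WT arrays 3 had an unadjusted p under 0.05, 14 were higher and 5 lower, with a median difference of 0.10 (0.03 without WT replicate 1). Over all genes tested the median was -0.03, 41.3% were higher and 4.52% had an unadjusted p under 0.05. The 3 with the smallest p are made by leukocytes in general. Coro1a, an actin-binding protein, differed by 1.10 (SE 0.43, adjusted p = 0.95), Rac2, a small GTPase, by 0.75 (SE 0.30, adjusted p = 0.95), and Ptprc, the phosphatase CD45, by 0.93 (SE 0.41, adjusted p = 0.95). Each had its highest level in hIAPP-Tg replicate 3, with 7.04 for Coro1a, 5.23 for Rac2 and 6.95 for Ptprc. Without that array the differences were 0.63 for Coro1a, 0.31 for Rac2 and 0.53 for Ptprc.

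The 6 cytotoxic and natural killer (NK) members were as flat. Their mean ranged from 3.49 to 3.66 in hIAPP-TgxBACE2-KO, 3.51 to 3.57 in hIAPP-Tg, 3.53 to 3.63 in BACE2-KO and 3.53 to 3.61 in WT arrays. Only Prf1, the pore-forming protein perforin, and Il2rb, a chain of the receptors for interleukin 2 and interleukin 15, passed the filter. Gzma and Gzmb, the granzymes, Nkg7, a granule membrane protein, and Klrd1, the NK receptor chain CD94, all had means under it and no array above 3.65.

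Prf1 was at 5.09, 4.92 and 5.38 in hIAPP-TgxBACE2-KO, 4.94, 5.32 and 4.77 in hIAPP-Tg, 5.43, 5.12 and 5.10 in BACE2-KO, and 4.96, 5.10 and 5.14 in WT arrays. All groups overlapped. Its widest pairwise difference was 0.15 for BACE2-KO against WT (SE 0.17, adjusted p = 0.997) and 0.04 without BACE2-KO replicate 1, and that of Il2rb against WT was -0.07 in both BACE2-KO and hIAPP-TgxBACE2-KO arrays. Of 13 further NK and cytotoxic genes, 6 were tested and limma called 0. For averaged BACE2 loss 1 had an unadjusted p under 0.05, as did 11.4% of all genes tested. It was Gzmk, another granzyme, whose mean of 3.46 passed the filter only through the hIAPP-Tg (3.56) and WT (3.58) arrays, so its p is not given as support.

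B cell transcripts gave the widest spread between arrays of one genotype. Jchain encodes the joining chain that links the units of secreted IgA and IgM and is made by plasma cells. Its level was 2.87, 2.84 and 4.96 in hIAPP-TgxBACE2-KO arrays, 2.52, 4.70 and 8.88 in hIAPP-Tg arrays, 5.06, 8.95 and 2.56 in BACE2-KO arrays, and 2.90, 5.55 and 2.90 in WT arrays. At least 1 array of every genotype was under the filter and at least 1 was clearly above it. The standard deviation within groups was 2.48, the third largest of all 17097 genes.

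The Jchain group means were 3.56 ± 1.22 in hIAPP-TgxBACE2-KO, 5.37 ± 3.23 in hIAPP-Tg, 5.52 ± 3.22 in BACE2-KO and 3.78 ± 1.53 in WT arrays (SD, n = 3 each). hIAPP-Tg arrays differed from WT by 1.58 (SE 1.62, adjusted p = 0.953) and BACE2-KO arrays by 1.74 (SE 1.62, adjusted p = 0.996). Without hIAPP-Tg replicate 3 the hIAPP-Tg difference was -0.17, and without BACE2-KO replicate 2 the BACE2-KO difference was 0.03. The difference between hIAPP-TgxBACE2-KO and hIAPP-Tg was -1.81 with all arrays and -0.05 without hIAPP-Tg replicate 3. The difference between hIAPP-TgxBACE2-KO and BACE2-KO was -1.97 with all arrays and -0.25 without BACE2-KO replicate 2.

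Ms4a1 encodes CD20, a surface protein of B cells that plasma cells lose. Its level was 2.90, 2.84 and 3.39 in hIAPP-TgxBACE2-KO, 3.19, 3.09 and 6.73 in hIAPP-Tg, 3.94, 4.43 and 3.06 in BACE2-KO, and 2.64, 2.66 and 2.67 in WT arrays. On the probe set used, every array of the other genotypes lay above the WT arrays, but most of these levels were under the filter. How many of all genes had such an order is not given here. Its mean of 3.46 passed the filter only through the arrays where it was high, and was 3.16 over the 11 arrays other than hIAPP-Tg replicate 3. Its differences are therefore given as a description, although it is 1 of the members counted above for hIAPP-Tg against WT and for the interaction. hIAPP-Tg differed from WT by 1.68, and by 0.48 without hIAPP-Tg replicate 3. The interaction was -2.45, -1.25 without that array, and -0.94 when BACE2-KO replicate 2 was left out as well. On a second Ms4a1 probe set hIAPP-Tg differed from WT by 0.26, and the WT arrays, at 2.71, 2.91 and 3.08, overlapped each other genotype.

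Cd79a and Cd79b encode the pair of signalling chains of the B cell receptor. Cd79b was at 2.95, 3.18 and 3.27 in hIAPP-TgxBACE2-KO, 3.01, 3.45 and 5.19 in hIAPP-Tg, 3.30, 3.91 and 3.0 in BACE2-KO, and 3.30, 3.29 and 3.18 in WT arrays. As with Ms4a1, hIAPP-Tg replicate 3 was the highest and BACE2-KO replicate 2 the next. The mean of Cd79b, 3.42, lay just under the filter, so it was not tested.

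Cd79a did not follow its partner. It was at 4.48, 4.27 and 4.26 in hIAPP-TgxBACE2-KO, 4.98, 4.71 and 4.75 in hIAPP-Tg, 4.78, 4.49 and 4.28 in BACE2-KO, and 4.67, 4.48 and 4.12 in WT arrays. Its 3 hIAPP-Tg arrays were above all hIAPP-TgxBACE2-KO and all WT arrays, the latter narrowly (4.71 against 4.67). The share of all genes with such an order is not given here. In this gene hIAPP-Tg replicate 3 was not the highest of its group. The difference between hIAPP-TgxBACE2-KO and hIAPP-Tg was -0.48 (SE 0.17, 95% interval -0.85 to -0.11, limma unadjusted p = 0.0159, adjusted p = 0.457). That between hIAPP-Tg and WT was 0.39 (SE 0.17, unadjusted p = 0.0409, adjusted p = 0.95) and 0.24 without WT replicate 3, and its adjusted p ran from 0.602 to 0.998 over the alternatives. The interaction of Cd79a was -0.57, with -0.69 without WT replicate 1 and -0.42 without WT replicate 3.

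Ighm, the constant part of the IgM heavy chain, stayed between 2.75 and 3.27 in all 12 arrays, under the filter. Other antibody genes were looked at after these values were seen. Of 15 measured besides Ighm, 4 spanned more than 2 log2 units, and all 4 were highest in hIAPP-Tg replicate 3 or BACE2-KO replicate 2. The others spanned less, and some peaked in these arrays and some elsewhere. Igha, of the IgA heavy chain, was highest in hIAPP-Tg replicate 2 (4.68) and lowest in BACE2-KO replicate 2 (3.52), with 3.83 in hIAPP-Tg replicate 3. Igkj1, a joining segment of the kappa light chain, was at 3.75, 3.42 and 8.60 in hIAPP-TgxBACE2-KO, 3.98, 8.86 and 11.65 in hIAPP-Tg, 8.67, 11.22 and 5.08 in BACE2-KO, and 3.44, 8.69 and 3.68 in WT arrays. It had the largest standard deviation within groups of all 17097 genes, 3.23. Iglv1, a variable segment of the lambda light chain, reached 6.74 in hIAPP-Tg replicate 3 and 7.59 in BACE2-KO replicate 2, and lay between 3.39 and 4.42 in the other 10 arrays. These segments belong to families of similar sequence, so a probe set may read several.

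**Figure D2:**
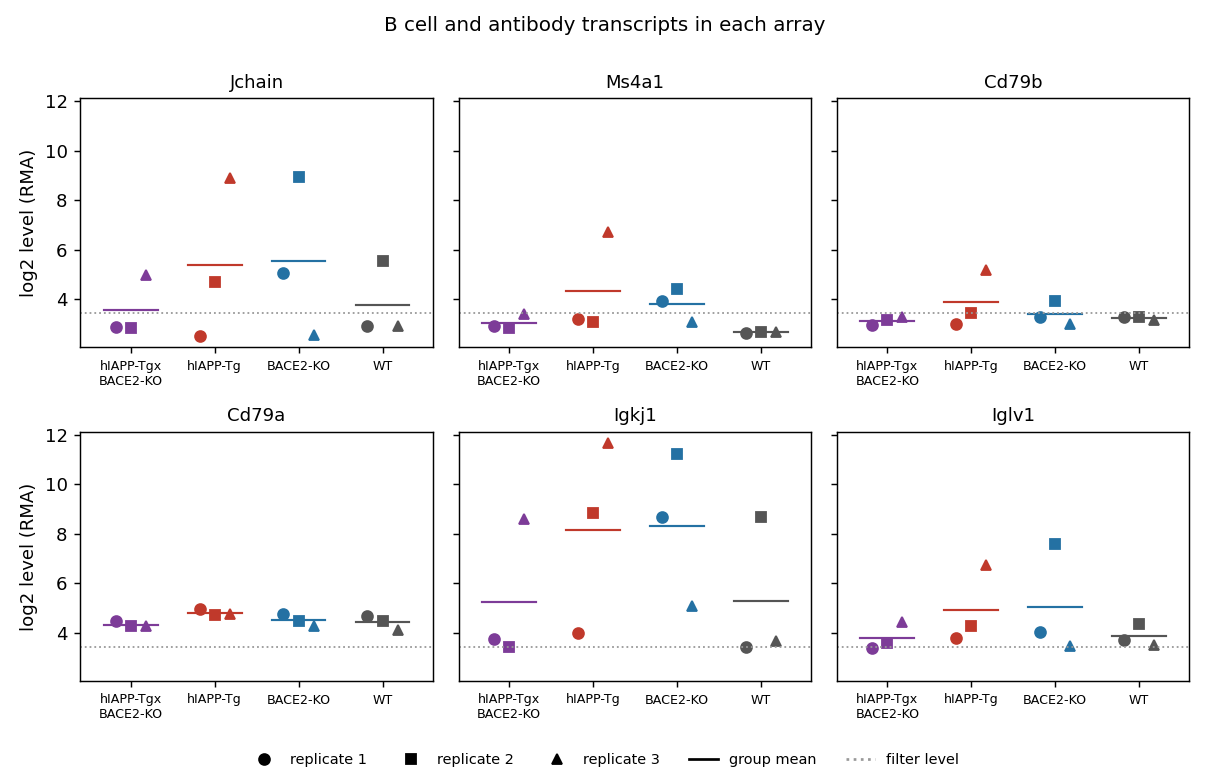
Log2 level of 4 B cell members and of the light chain genes Igkj1 and Iglv1 in each array (marker shape gives the replicate, the line the group mean, the dotted line the filter at 3.43). hIAPP-Tg replicate 3 and BACE2-KO replicate 2 stand highest in Jchain, Ms4a1, Cd79b, Igkj1 and Iglv1, while in Cd79a the highest array is hIAPP-Tg replicate 1.

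The mean over the 5 B cell members was 3.25, 3.19 and 3.83 in hIAPP-TgxBACE2-KO, 3.32, 3.79 and 5.71 in hIAPP-Tg, 3.98, 4.95 and 3.13 in BACE2-KO, and 3.29, 3.78 and 3.16 in WT arrays. Of 14 further B and plasma cell genes, 6 were tested and limma called 0 in any comparison. In hIAPP-Tg against WT arrays 12 were higher and 2 lower, with a median of 0.21. Without hIAPP-Tg replicate 3, 9 were higher and the median was 0.08, and over all genes tested 41.3% were higher with a median of -0.03. The 1 gene at an unadjusted p under 0.05, against 4.52% of all genes tested, was Tnfrsf13c, the receptor for the survival factor BAFF. Its mean of 3.45 passed the filter only through the hIAPP-Tg arrays (mean 3.93, against 3.08 in WT arrays), so no test of it is given. Pou2af1, a B cell transcription cofactor named after its values were seen, was at 5.02 in hIAPP-Tg replicate 3 and 3.53 in BACE2-KO replicate 2, and at 2.93 or lower in the other 10 arrays.

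Class II members are the chains of the peptide-presenting molecules (H2-Aa, H2-Ab1 and H2-Eb1), the invariant chain Cd74 that escorts them, the peptide exchanger H2-DM (H2-DMa and H2-DMb1) and Ciita, the coactivator that switches the set on. They are known to share promoter elements, the X and Y boxes, which bind RFX and NF-Y and recruit CIITA. Promoter sequence of RefSeq, build GRCm38.p6, was found for 22 of the 33 members, and the 180 bases before the start of 3 class II genes are shown because those genes hold one or both of the motifs named next. Capitals mark the Y box core TGATTGG and a part of the X box, AACNGATG, searched on both strands. Over 32851 windows of this length in the table, 6.31% held the first and 1.39% the second. A match only describes the letters.
H2-Aa, chr17:34287824-34288003, minus strand: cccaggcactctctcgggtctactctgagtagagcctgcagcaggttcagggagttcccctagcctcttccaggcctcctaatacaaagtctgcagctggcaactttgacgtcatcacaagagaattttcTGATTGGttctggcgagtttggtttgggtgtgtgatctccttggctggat
H2-Eb1, chr17:34305687-34305866, plus strand: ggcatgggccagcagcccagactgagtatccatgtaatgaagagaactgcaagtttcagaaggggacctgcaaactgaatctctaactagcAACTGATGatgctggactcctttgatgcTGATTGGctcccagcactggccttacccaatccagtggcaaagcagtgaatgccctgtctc
H2-DMb1, chr17:34153011-34153190, plus strand: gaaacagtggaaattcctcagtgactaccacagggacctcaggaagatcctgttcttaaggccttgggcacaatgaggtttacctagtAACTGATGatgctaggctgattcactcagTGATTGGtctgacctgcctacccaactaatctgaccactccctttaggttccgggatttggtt

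The Y box core begins 50 bases before the start of H2-Aa, 61 before that of H2-Eb1 and 63 before that of H2-DMb1. The X box letters begin 89 bases before the start of H2-Eb1 and 92 before that of H2-DMb1, and this search found none in the H2-Aa window. H2-DMa, the remaining class II gene with a promoter in the table, had neither motif in its windows, while the Y box core was also found in that of the class I gene Psmb9. H2-DMb1 and Ciita were measured under the filter, at 2.88 to 3.66 and 3.02 to 3.66 over the 12 arrays, so that neither was tested.

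Cd74 was at 6.34, 7.65 and 7.35 in hIAPP-TgxBACE2-KO arrays, 6.68, 6.90 and 7.83 in hIAPP-Tg, 6.40, 7.13 and 6.71 in BACE2-KO, and 7.21, 7.01 and 6.99 in WT arrays. The highest array was hIAPP-Tg replicate 3 and the lowest hIAPP-TgxBACE2-KO replicate 1, and all groups overlapped. H2-Aa, the alpha chain of I-A, was at 7.13, 7.83 and 7.55 in hIAPP-TgxBACE2-KO, 7.37, 6.84 and 7.96 in hIAPP-Tg, 6.98, 7.54 and 7.17 in BACE2-KO, and 7.72, 7.37 and 7.13 in WT arrays. H2-Ab1, its beta chain, was at 6.38, 7.39 and 7.07 in hIAPP-TgxBACE2-KO, 6.56, 6.54 and 7.56 in hIAPP-Tg, 6.29, 6.86 and 6.64 in BACE2-KO, and 7.18, 6.93 and 6.65 in WT arrays. In both, hIAPP-Tg replicate 3 was again the highest and hIAPP-TgxBACE2-KO replicate 2 the next.

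H2-Eb1, the beta chain of I-E, was at 7.31, 7.96 and 8.02 in hIAPP-TgxBACE2-KO, 6.95, 7.35 and 8.48 in hIAPP-Tg, 7.27, 7.75 and 7.60 in BACE2-KO, and 7.89, 7.77 and 7.63 in WT arrays. H2-DMa was at 4.15, 4.60 and 4.53 in hIAPP-TgxBACE2-KO, 4.46, 4.24 and 4.76 in hIAPP-Tg, 4.14, 5.25 and 4.24 in BACE2-KO, and 4.63, 4.64 and 4.41 in WT arrays. hIAPP-Tg replicate 3 was highest in H2-Eb1 and BACE2-KO replicate 2 in H2-DMa, the arrays that stood apart in B cell transcripts. For the 5 tested class II members the standard deviation within groups lay between 0.361 and 0.498, at the 95th to 98th percentile of all genes.

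**Figure D3:**
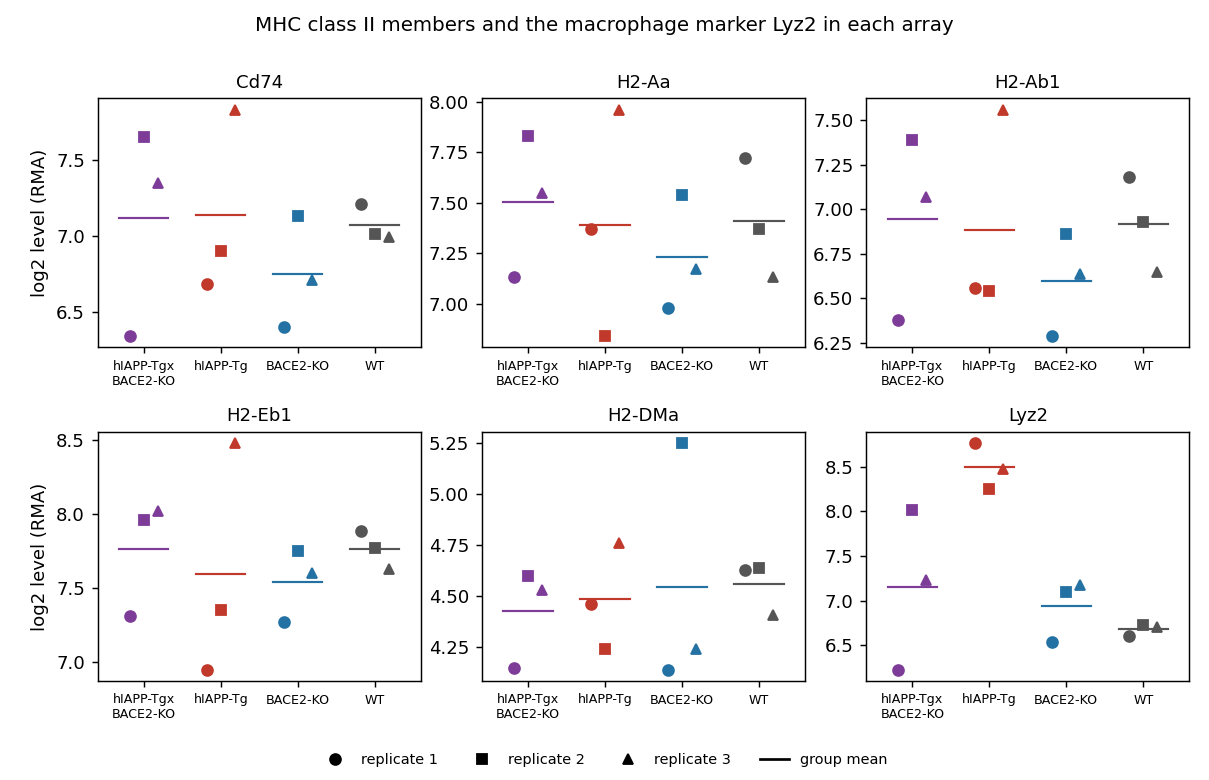
Log2 level of the 5 tested class II members and of the macrophage gene Lyz2 in each array (marker shape gives the replicate, the line the group mean; each panel has its own axis, which does not start at 0). hIAPP-Tg replicate 3 is the top array in Cd74, H2-Aa, H2-Ab1 and H2-Eb1, whereas all 3 hIAPP-Tg arrays are high in Lyz2.

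None of the 5 tested class II members had an unadjusted p under 0.05 in any comparison. H2-DMb1, not tested, was at 2.88, 3.01 and 2.92 in hIAPP-TgxBACE2-KO, 3.28, 3.66 and 3.21 in hIAPP-Tg, 3.04, 3.36 and 3.35 in BACE2-KO, and 2.94, 3.17 and 3.05 in WT arrays. The mean of its hIAPP-TgxBACE2-KO arrays differed by -0.45 from hIAPP-Tg and by -0.31 from BACE2-KO. Its hIAPP-Tg mean differed by 0.33 from WT. Most of these levels were under the filter, and arrays of different groups lay close, such as 3.01 in hIAPP-TgxBACE2-KO and 3.04 in BACE2-KO. Over the 7 measured members the median difference was 0.03 for hIAPP-TgxBACE2-KO against WT and 0.22 against BACE2-KO (0.33 without BACE2-KO replicate 2). Against hIAPP-Tg the median was 0.06, and 0.32 without hIAPP-Tg replicate 3. It was -0.03 for hIAPP-Tg against WT (2 of 7 higher), -0.28 without hIAPP-Tg replicate 3 and 0.14 without hIAPP-Tg replicate 2. For BACE2-KO against WT it was -0.18, with 5 of 7 lower, and -0.33 without BACE2-KO replicate 2. H2-Ab1 had the smallest p there, with a difference of -0.32 (SE 0.30, adjusted p = 0.994), which was -0.17 without BACE2-KO replicate 1 and -0.19 without WT replicate 1.

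Single arrays also set the class II medians of hIAPP-TgxBACE2-KO. Without its replicate 1 they were 0.23 against WT, 0.33 against hIAPP-Tg and 0.45 against BACE2-KO. Without its replicate 2 they were -0.15, -0.15 and 0.10 in the same order. Cd74 differed from BACE2-KO by 0.37 (SE 0.34, 95% interval -0.36 to 1.10, adjusted p = 0.967), an interval that holds differences of either sign. Without single arrays of these groups it ran from 0.10 (without hIAPP-TgxBACE2-KO replicate 2) to 0.75 (without its replicate 1), with 0.19 without BACE2-KO replicate 1 and 0.56 without BACE2-KO replicate 2.

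Macrophage markers moved in a different order across the arrays. The mean over 19 markers was 5.15, 6.11 and 5.50 in hIAPP-TgxBACE2-KO, 6.04, 5.59 and 5.86 in hIAPP-Tg, 5.15, 5.44 and 5.53 in BACE2-KO, and 5.45, 5.38 and 5.12 in WT arrays. The mean over the 7 class II members was 5.32, 5.96 and 5.84 in hIAPP-TgxBACE2-KO, 5.48, 5.51 and 6.12 in hIAPP-Tg, 5.36, 5.94 and 5.56 in BACE2-KO, and 5.80, 5.74 and 5.58 in WT arrays. hIAPP-TgxBACE2-KO replicate 1 was low and its replicate 2 high in both, but hIAPP-Tg replicate 1 was high in macrophage markers and low in class II.

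In hIAPP-Tg against WT arrays, 17 of the 19 macrophage markers were higher, 6 had an unadjusted p under 0.05 and limma called 0, with a median difference of 0.44 (0.34 without hIAPP-Tg replicate 1). In the same comparison 0 of 12 beta cell markers were higher (median -0.34, 5 at an unadjusted p under 0.05). Of 13 stellate and fibroblast markers 12 were higher (median 0.28), and limma called 0 of either list. Over all genes tested 41.3% were higher and 4.52% had an unadjusted p under 0.05. Lyz2, which encodes lysozyme of macrophages and neutrophils, was at 6.23, 8.01 and 7.23 in hIAPP-TgxBACE2-KO, 8.76, 8.25 and 8.47 in hIAPP-Tg, 6.54, 7.10 and 7.18 in BACE2-KO, and 6.61, 6.73 and 6.71 in WT arrays. Its 3 hIAPP-Tg arrays were above all others, and the share of all genes with such an order is not given here. The difference from WT was 1.81 (SE 0.33, adjusted p = 0.568), and the part of macrophages in the class II values was not tested. The 9 dendritic cell markers had means of 3.54 to 3.76 in hIAPP-TgxBACE2-KO, 3.71 to 3.91 in hIAPP-Tg, 3.64 to 3.76 in BACE2-KO and 3.62 to 3.70 in WT arrays, close to the filter.

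Of 14 other class II pathway genes, 11 were tested and limma called 0 in any comparison. In the averaged transgene comparison 3 had an unadjusted p under 0.05, as did 7.59% of all genes tested. Ctss, the protease cathepsin S that trims the invariant chain, differed between hIAPP-Tg and WT by 0.84 (SE 0.28, adjusted p = 0.95) and in the averaged transgene comparison by 0.71 (SE 0.20, adjusted p = 0.644). Its levels were 8.15, 9.59 and 8.87 in hIAPP-TgxBACE2-KO, 9.54, 9.20 and 9.30 in hIAPP-Tg, 7.88, 8.46 and 8.50 in BACE2-KO, and 8.65, 8.49 and 8.38 in WT arrays. As in Lyz2, all hIAPP-Tg arrays were above all WT arrays, an order whose share over all genes is not given here. Lgmn, the lysosomal protease legumain, differed by 0.28 in the averaged transgene comparison (SE 0.11, adjusted p = 0.644) and by 0.27 for averaged BACE2 loss (SE 0.11, adjusted p = 0.357), or 0.18 without hIAPP-TgxBACE2-KO replicate 2.

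Class I members are the heavy chains H2-K1 and H2-D1, the loading factor tapasin (Tapbp) and the immunoproteasome subunits Psmb8 and Psmb9. All 5 measured members passed the filter, and all 5 lie on chromosome 17, where the mouse MHC is. Class I promoters are known for a kappa B site, read by NF-kappa B, next to an interferon-stimulated response element, read by interferon regulatory factors. The same 180 bases of the heavy chain promoters are shown because both carry these neighbours. Capitals mark the kappa B letters GGGATTCCC and a part of the interferon element, AAGTGAAA, searched on both strands, which 0.18% and 0.901% of the 32851 windows held.
H2-K1, chr17:34000348-34000527, minus strand: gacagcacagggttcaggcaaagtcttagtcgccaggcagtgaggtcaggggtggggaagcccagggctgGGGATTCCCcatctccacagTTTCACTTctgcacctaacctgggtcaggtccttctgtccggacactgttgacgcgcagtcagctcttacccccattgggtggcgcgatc
H2-D1, chr17:35262914-35263093, plus strand: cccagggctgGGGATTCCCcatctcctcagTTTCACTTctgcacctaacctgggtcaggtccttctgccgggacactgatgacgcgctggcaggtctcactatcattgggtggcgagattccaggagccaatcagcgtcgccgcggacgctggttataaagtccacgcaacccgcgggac

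The kappa B letters begin 110 bases and the interferon letters 90 bases before the start shown for H2-K1, for which the table lists 2 starts. In H2-D1 they begin 170 and 150 bases before the start. The H2-D1 window also holds the Y box letters on the other strand, left in lower case. The heavy chain genes are near-identical to other class I genes in the mouse, and both probe sets used are of the kind that can read several family members, so their levels are uncertain as levels of H2-K1 and H2-D1 alone.

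H2-K1 was at 12.22, 12.05 and 12.11 in hIAPP-TgxBACE2-KO arrays, 12.40, 12.11 and 12.13 in hIAPP-Tg, 12.21, 12.10 and 12.12 in BACE2-KO, and 12.32, 12.20 and 12.24 in WT arrays. H2-D1 was at 11.74, 11.89 and 11.91 in hIAPP-TgxBACE2-KO, 12.10, 11.78 and 11.64 in hIAPP-Tg, 11.85, 11.79 and 11.67 in BACE2-KO, and 11.86, 11.84 and 11.89 in WT arrays. The 12 arrays spanned 0.35 log2 units in H2-K1 and 0.46 in H2-D1, and hIAPP-Tg replicate 1 was the highest in both. Chosen after their values were seen, the pairwise differences of H2-D1 ran from -0.09 to 0.08, and those of H2-K1 from -0.13 to -0.02.

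Tapbp was at 10.66, 11.06 and 10.79 in hIAPP-TgxBACE2-KO, 10.97, 11.06 and 10.88 in hIAPP-Tg, 10.96, 10.64 and 10.83 in BACE2-KO, and 11.03, 11.02 and 10.96 in WT arrays. Psmb8 was at 8.98, 9.02 and 8.87 in hIAPP-TgxBACE2-KO, 9.70, 8.97 and 8.93 in hIAPP-Tg, 9.04, 8.41 and 8.57 in BACE2-KO, and 8.88, 9.05 and 8.98 in WT arrays. Psmb9 was at 7.65, 7.80 and 7.51 in hIAPP-TgxBACE2-KO, 8.41, 7.82 and 7.77 in hIAPP-Tg, 7.93, 7.43 and 7.51 in BACE2-KO, and 7.94, 8.05 and 7.89 in WT arrays. hIAPP-Tg replicate 1 was the highest and BACE2-KO replicate 2 the lowest in both immunoproteasome genes, on the probe sets used. Psmb9 in hIAPP-TgxBACE2-KO differed from WT by -0.31, but on its other probe sets by -0.05 and 0.11.

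**Figure D4:**
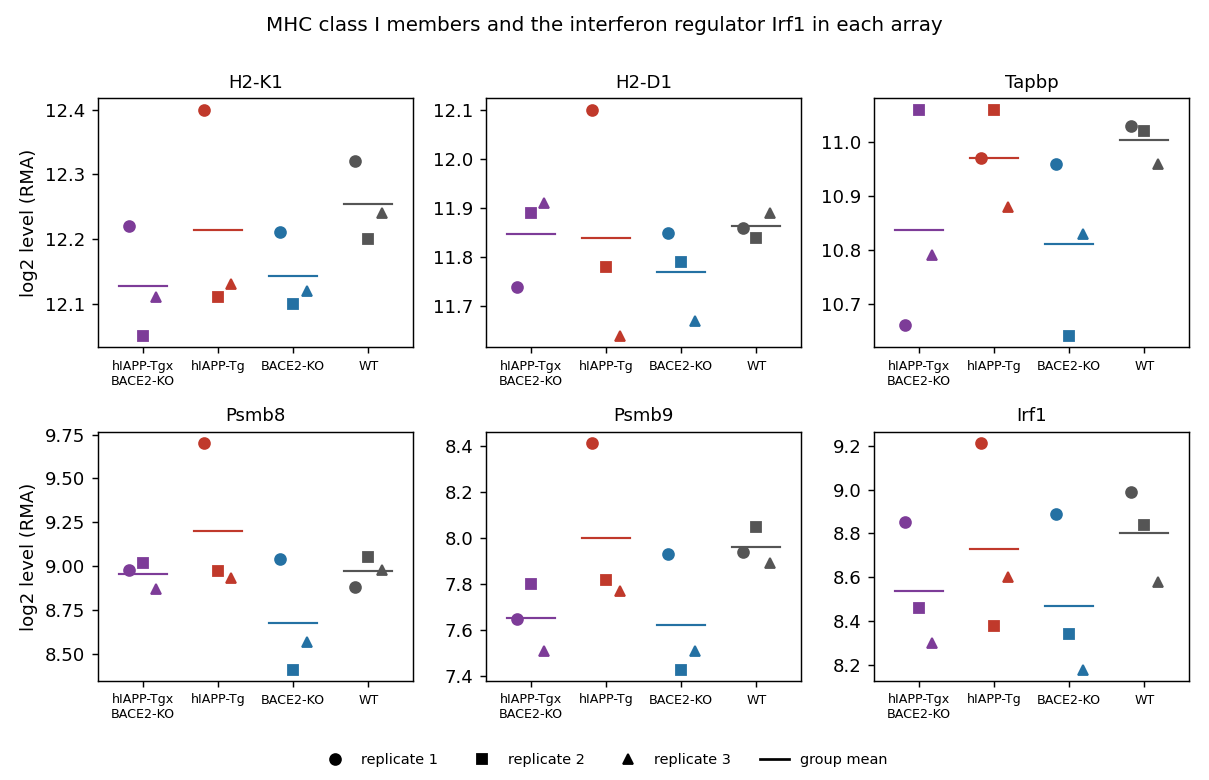
Log2 level of the 5 class I members and of the interferon regulator Irf1 in each array (marker shape gives the replicate, the line the group mean; each panel has its own axis, which does not start at 0). hIAPP-Tg replicate 1 is highest in H2-K1, H2-D1, Psmb8, Psmb9 and Irf1, and the BACE2-KO mean of every class I member lies below the WT mean.

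Averaged over transgene status, BACE2 loss went with lower levels of all 5 class I members, by a median of -0.16 against 0.018 over all genes tested, of which 55.6% were higher. None of the 5 passed the test. Psmb9 differed by -0.34 (SE 0.12, 95% interval -0.60 to -0.08, limma unadjusted p = 0.0148, adjusted p = 0.286), Psmb8 by -0.27 (SE 0.13, adjusted p = 0.482) and Tapbp by -0.16 (SE 0.07, unadjusted p = 0.0465, adjusted p = 0.426). Psmb9 had a negative difference in all 21 alternatives, from -0.42 without BACE2-KO replicate 1 to -0.10 on the mean of its 3 probe sets, with adjusted p from 0.156 to 0.736. All but that mean used 1 probe set. On the other probe sets BACE2-KO differed from WT by -0.14 and -0.01, and hIAPP-TgxBACE2-KO from hIAPP-Tg by 0.12 on each. The lower level was therefore not shared by the Psmb9 probe sets. The sign of H2-D1, named after its values were seen, depended on one array: its difference was -0.04 with all arrays and 0.02 without hIAPP-Tg replicate 1, where Psmb8 differed by -0.14.

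The pairwise values were alike in size. The class I median was -0.13 for hIAPP-TgxBACE2-KO against WT and -0.19 for BACE2-KO against WT, with all 5 members lower in each, and both comparisons share the WT arrays. It ran from -0.27 to -0.11 for BACE2-KO when single arrays were left out, the smaller size without BACE2-KO replicate 2. Against hIAPP-Tg the hIAPP-TgxBACE2-KO median was -0.13, and 0.01 without hIAPP-Tg replicate 1. Between hIAPP-TgxBACE2-KO and BACE2-KO it was 0.03, and -0.04 without BACE2-KO replicate 2.

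The transgene difference in class I was near 0. Over the 5 members the median was -0.02 for hIAPP-Tg against WT, and its sign turned with scaling, since each array minus its median gave 0.01. In the averaged comparison the median was 0.03, with 0.08 without hIAPP-Tg replicate 3 and -0.01 without BACE2-KO replicate 2. Without hIAPP-Tg replicate 1 the hIAPP-Tg median was -0.13, and without its replicate 3 it was 0.08. Psmb8 had the smallest p in the averaged transgene comparison, with a difference of 0.26 (SE 0.13, adjusted p = 0.672), and 0.13 without hIAPP-Tg replicate 1. The interaction had a class I median of 0.05, and 0.20 without hIAPP-Tg replicate 1. It was -0.02 without hIAPP-Tg replicate 3, and -0.02 without BACE2-KO replicate 2.

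**Figure D5:**
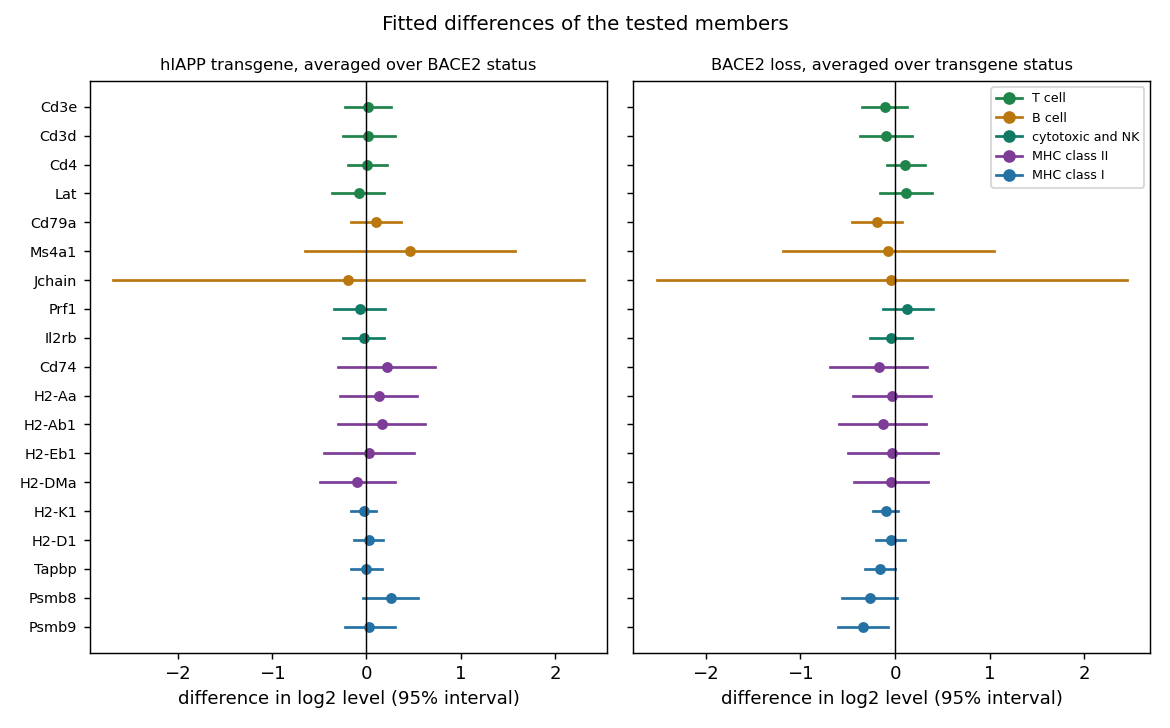
Fitted log2 difference (point) and 95% interval (bar) of the 19 tested members for the transgene averaged over BACE2 status and for BACE2 loss averaged over transgene status. The intervals of Jchain and Ms4a1 are the widest, those of H2-K1, H2-D1 and Tapbp among the narrowest, and for BACE2 loss the intervals of Psmb9 and Tapbp lie below 0.

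Of 14 other class I pathway genes all were tested and limma called 0, with 3 at an unadjusted p under 0.05 for averaged BACE2 loss (11.4% of all genes tested). For averaged BACE2 loss 10 were lower and 4 higher, with a median of -0.09, while 55.6% of all genes tested were higher, with a median of 0.018. Pdia3, the disulphide isomerase ERp57 of the peptide-loading complex, differed by -0.45 (SE 0.13, adjusted p = 0.144), and Psmb10, the remaining inducible subunit of the immunoproteasome, by -0.31 (SE 0.14, adjusted p = 0.423), or -0.20 without hIAPP-Tg replicate 1. Sppl2a differed by 0.17 (SE 0.07, adjusted p = 0.375). This intramembrane protease is known for cleaving the class II invariant chain, but the list of 14 and the 3 genes counted above include it. Pdia3 was at 5.36, 4.91 and 5.18 in hIAPP-TgxBACE2-KO, 5.43, 5.90 and 5.69 in hIAPP-Tg, 5.34, 4.93 and 4.94 in BACE2-KO, and 5.56, 5.52 and 5.28 in WT arrays. The hIAPP-TgxBACE2-KO arrays were all below the hIAPP-Tg arrays, and how many of all genes had such an order is not given here.

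Genes of interferon signalling, both regulators and genes that interferon induces, showed the same array on top. Their mean over 18 genes was 6.93, 6.99 and 6.75 in hIAPP-TgxBACE2-KO, 7.20, 6.62 and 6.65 in hIAPP-Tg, 6.73, 6.58 and 6.81 in BACE2-KO, and 6.88, 6.85 and 6.77 in WT arrays. Irf1, an interferon-induced transcription factor, was at 8.85, 8.46 and 8.30 in hIAPP-TgxBACE2-KO, 9.21, 8.38 and 8.60 in hIAPP-Tg, 8.89, 8.34 and 8.18 in BACE2-KO, and 8.99, 8.84 and 8.58 in WT arrays. For averaged BACE2 loss it differed by -0.26 (SE 0.16, adjusted p = 0.583), and Gbp2, an interferon-induced GTPase, by -0.59 (SE 0.40, adjusted p = 0.645). Without hIAPP-Tg replicate 1 these were -0.14 for Irf1 and -0.17 for Gbp2. 17 of the 18 were tested and limma called 0, with 0 at an unadjusted p under 0.05 for averaged BACE2 loss. hIAPP-Tg replicate 1 also had the lowest mean of the beta cell markers, 9.87, and the part of its cell makeup in the class I values was not tested.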

How the data were processed

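Affymetrix arrays were hybridised with biotinylated cRNA from 12 islet samples, 3 per genotype, per the labels. The deposited log2 values, which cover 45141 probe sets on each array, came from RMA (affy), as the submitters' processing notes list. Software versions and genome build: not given in the sources used here. Array medians ran from 4.22 to 4.35, and at most 2.22% of values were equal between any 2 arrays. Arrays have no read depth, and their number limits the precision.

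Symbols came from the platform annotation (28898 probe sets with 1 symbol, 551 with several, 15692 not listed). A group-mean model was fitted to all 12 arrays with limma 3.58.1 in R 4.3.3 (lmFit, contrasts.fit, eBayes with trend), two-sided, with Benjamini-Hochberg adjustment over 12825 genes. The script was tested on simulated data. Promoters were searched with Python 3.11.15.

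In each comparison the text names called members and, per role, up to 3 tested members with the smallest unadjusted p; in other lists, likewise up to 3; levels of any measured member may be given. Exceptions are stated. Members and lists were chosen with earlier results of these data known. Alternatives changed the filter, the probe set rule, the scaling, the variance model, array weights, the arrays fitted and the replicate block, or left out arrays.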

Additional observations from a re-analysis of the deposited data

How the results depend on the processing

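The count of called members was 0 in all 8 comparisons under every alternative run, 173 counts in all, and the smallest adjusted p of any member was 0.156 (Psmb9 for averaged BACE2 loss, with the replicate block). Single members were followed under the alternatives only if they were among the up to 3 per role with the smallest unadjusted p in a comparison. Of 2346 such values, 120 had the other sign. H2-D1 for averaged BACE2 loss, whose sign also turned, is not among them. Leaving out hIAPP-Tg replicate 3 and BACE2-KO replicate 2 together, chosen after seeing the data, gave a class II interaction median of 0.73, against 0.29 with all arrays. Same-numbered arrays are not described as pairs: their deviations correlated at 0.088 to 0.372 for replicate 1, -0.129 to 0.137 for replicate 2 and -0.093 to 0.294 for replicate 3. With the replicate block, 0 members were called in every comparison, while the calls over all genes for averaged BACE2 loss numbered 205, against 118 without it. That count was 32 without hIAPP-Tg replicate 3 and BACE2-KO replicate 2, 46 without WT replicate 1 or WT replicate 2, and 63, 64 and 75 without hIAPP-Tg replicate 2, hIAPP-Tg replicate 3 and hIAPP-TgxBACE2-KO replicate 3. The causes were not tested. Of the 21 lymphocyte members 9 passed the filter, and without the filter 0 members were called. Leaving out single arrays for genes that are no members was chosen after seeing the data.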

Other observations

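2 further genes were looked at after the B cell values were seen. Igk-V21, a kappa variable segment, reached 6.11 in hIAPP-Tg replicate 3 and 3.52 in BACE2-KO replicate 2 and was at 3.12 or lower in the other 10 arrays. Bank1, a B cell adaptor, had its highest level, 4.50, in hIAPP-Tg replicate 3.

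Cxcl10, a chemokine that draws in T cells, was at 6.97, 5.63 and 5.59 in hIAPP-TgxBACE2-KO, 6.37, 4.14 and 4.48 in hIAPP-Tg, 5.76, 5.78 and 6.53 in BACE2-KO, and 6.83, 6.17 and 5.02 in WT arrays. hIAPP-Tg differed from WT by -1.01 (SE 0.58, limma adjusted p = 0.95), and leaving out 1 array moved this to between -1.70 (without hIAPP-Tg replicate 1) and -0.58 (without hIAPP-Tg replicate 2), with -0.60 without WT replicate 1. Cxcl9, named after its values were seen, was at 5.36 in hIAPP-TgxBACE2-KO replicate 2 and at 4.09 or lower in the other 11 arrays. Stellate and fibroblast markers were higher in hIAPP-TgxBACE2-KO than in WT arrays in 13 of 13, with a median difference of 0.57. Of these, 3 had an unadjusted p under 0.05 and limma called 0. Over all genes tested 49.2% were higher and 8.43% had an unadjusted p under 0.05. The mean of the stellate and fibroblast markers was 6.22 in hIAPP-TgxBACE2-KO replicate 2, the top array, against 5.26 and 5.49 in replicates 1 and 3. That array was also the top array in macrophage markers, 6.11, and among the highest in class II, 5.96.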
